A study of Mus musculus with 18 samples.

Results

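Mouse lung tumours in which p53 function had been given back were set against tumours without that treatment, over both tumour grades at once. All 18 tumours of the series entered the comparison. The 10 treated tumours came from 2 mice: 6 adenocarcinomas (grade 3) and 3 adenomas (grade 2) of the female mouse 8688, and 1 adenoma, 8639T4, of the male mouse 8639. The 8 untreated tumours came from 4 male mice: 8584 gave 1 adenocarcinoma, 8629 gave 2, 8565 gave 1 adenocarcinoma and 2 adenomas, and 8700 gave 2 adenomas. All mice were of the mixed strain C57/B6-129SvJae and 10 weeks old. Treated mice received tamoxifen in 2 intraperitoneal injections, and their tumours were taken on day 7 after the first. Tumours were microdissected, and 100 ng of total RNA from each was amplified, labelled and hybridised to a 3' expression array.

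The labels do not name the alleles these mice carried, and they do not say that untreated mice received the injection vehicle. From what is known of the study, tamoxifen switched a silenced Trp53 allele back on through a Cre recombinase present throughout the body. An effect of tamoxifen or of the recombinase on tumour or stroma therefore cannot be told apart from an effect of p53. No mouse carried both treated and untreated tumours, and 9 of the 10 treated tumours shared 1 mouse that was also the only female, so treatment is nearly the same split as mouse 8688 and as sex. The mouse was kept as a random block, but p-values over tumours of so few mice remain too small. In pieces of tissue, fewer cells of a type and less RNA per cell cannot be told apart.

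The deposited values are log2 intensities, so a difference of 1 is a doubling. Of 12393 genes with 1 probe set each, 7300 lay above the array's median on at least 4 arrays and were tested; 23 of these passed only through the treated tumours and 34 only through the untreated ones. Array medians lay between 6.05 and 6.18, and correlations between arrays between 0.9745 and 0.997. The excess of signal at the 3' over the 5' end of control transcripts, a sign of RNA quality, was 2.62 in 8688T3 and 1.85 in 8639T4, against 1.05 or less in the other tumours. Sex-linked transcripts followed the labels: Eif2s3y, a Y-linked translation factor gene, lay between 1.55 and 2.06 in mouse 8688 and between 10.90 and 12.02 in the tumours of male mice, 8639T4 included. The restored gene itself, Trp53, was not analysed here. Alveolar type 2 markers, which lung adenomas keep, had mean levels between 11.76 and 12.24 in treated and between 11.49 and 12.24 in untreated tumours.

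p53 is a transcription factor that activates genes for cell cycle arrest, apoptosis and DNA repair. Its target Cdkn1a encodes p21, an inhibitor of cyclin-dependent kinases. Through p21, the DREAM and retinoblastoma complexes come to rest on the promoters of cell division genes and hold them off, partly at the cell cycle genes homology region, which often stands near a CCAAT box. The promoters of the 3 mitotic genes called below and of Cdkn1a are shown because they stand for the 2 sides of this pathway. Each is the 100 bases before a RefSeq start on GRCm38.p6, in the direction of the gene. Cdkn1a has 2 promoters in the RefSeq table, and the first is shown, the only 1 of the 2 with half-site matches. Capitals mark TTTGAA and CCAAT, on either strand, in the first 3 genes and p53 half-sites in Cdkn1a. The Cdc20 stretch lies at chr4:118437344-118437443 (minus strand), that of Ncapg at chr5:45669825-45669924 (plus strand), that of Anln at chr9:22389207-22389306 (minus strand) and that of Cdkn1a at chr17:29090879-29090978 (plus strand).
Cdc20: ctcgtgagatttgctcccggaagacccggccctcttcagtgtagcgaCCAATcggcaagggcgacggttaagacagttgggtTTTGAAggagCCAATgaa
Ncapg: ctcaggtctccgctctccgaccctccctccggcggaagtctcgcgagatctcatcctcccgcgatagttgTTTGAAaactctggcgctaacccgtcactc
Anln: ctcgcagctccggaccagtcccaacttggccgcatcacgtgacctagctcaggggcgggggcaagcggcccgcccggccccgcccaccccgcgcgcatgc
Cdkn1a: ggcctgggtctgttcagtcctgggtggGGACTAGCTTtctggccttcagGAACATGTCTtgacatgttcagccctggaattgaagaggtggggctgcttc

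In Cdc20 the TTTGAA match began 18 bases before the start, between CCAAT matches at 53 and 8 bases, and in Ncapg it began 30 bases before. Anln held neither motif in its 250 bases. Of the 48 mitosis and cytokinesis genes on the array, 39 had 41 promoters in the RefSeq table; 41.5% of these promoters held TTTGAA within 250 bases before the start, on either strand, against 10.3% of the 7701 promoters of tested genes and 16% of all 32851 promoters. CCAAT stood in 78% of them, against 34.2% and 33.8%. p53 half-sites stood in 21.1% of the 57 promoters of the p53 target lists, against 5.96% and 7.13%. Such matches describe the letters and show no binding.

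Over both grades, 17 of 7300 genes (0.233%) differed between treated and untreated tumours at an adjusted p under 0.05 (limma with the mouse as a random block, Benjamini-Hochberg over all tested genes). The 6 higher genes (0.0822%) were Ang3, Cth, Ctr9, Gal, Itgb3bp and Shmt2. The 11 lower genes (0.151%) were Anln, Cdc20, Cdh16, Eif2s3y, Fam160b1, Gbp2b, Hbb-b2, Il1r1, Ncapg, Tbxas1 and Tmem242. Ang3 and Gal exceeded the array median in 0 of 8 untreated tumours, and Cdh16, Gbp2b and Tmem242 in 0 of 10 treated ones. These genes passed the filter only through the group in which they were high. Without the filter 45 genes were called, all 17 among them. At an unadjusted p under 0.05 there were 516 genes (7.07%), 289 higher (3.96%) and 227 lower genes (3.11%), and 59.2% of all fitted differences lay above 0. All 10 treated tumours lay on one side of all 8 untreated tumours for 26 genes (0.356%), of which 10 were among the 17.

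None of the 41 tested p53 targets and regulators was called, of 52 on the array and 60 listed. At an unadjusted p under 0.05 by limma, 14 were higher in treated tumours, against 3.96% of all tested genes. None was lower at that p, against 3.11%. The median difference of the 41 was 0.21, against 0.03 over all tested genes, and 33 lay above 0, against 59.2%. Without the filter, 41 of the 52 lay above 0, against 7027 of all 12393 genes, with a median of 0.18. By list, the median difference was 0.49 for repair and metabolism targets and 0.37 for cell cycle arrest and growth targets. It was 0.15 for apoptosis targets and 0.06 for feedback genes and regulators, whose tested members lay between -0.18 and 0.27. Every list held tested members below 0.

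Cdkn1a, the p21 gene, reached 11.87, 11.35, 10.57, 11.45, 11.14 and 10.52 in the adenocarcinomas and 11.27, 11 and 11.11 in the adenomas of mouse 8688, and 11.06 in 8639T4. In untreated tumours it was 8.88, 9.001 and 9.02 in mouse 8565, 9.19 and 9.34 in mouse 8629, 10.40 in 8584T3, and 10.62 and 10.80 in mouse 8700. The untreated values thus fell into a low set from 2 mice and a high set from the other 2. Of the high set, only mouse 8700 reached the treated range, and 8584T3 lay just under its lower end of 10.52. The fitted difference was 1.38 (SE 0.36, n = 10 and 8), a 2.60-fold higher level, with an adjusted p of 0.142 by limma, and the second Cdkn1a probe set gave 1.53. The test misses the threshold with all mice. Without mouse 8700, Cdkn1a was among 6 p53 targets called higher, of 18 genes called higher in all. Without mouse 8584 it was among 9, of 73 genes called higher in all. These are the untreated mice with the highest Cdkn1a, so leaving them out favours a call for it. Without mouse 8565 or mouse 8629 no p53 target was called.

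Mouse 8700 was also the highest untreated mouse for Psrc1, Gadd45a, Ccng1 and Zmat3. Psrc1, a microtubule-associated p53 target, lay between 7.01 and 9.97 in treated tumours. Its untreated values were 2.67 in 8584T3, between 3.42 and 5.14 in mice 8565 and 8629, and 7.97 and 8.05 in mouse 8700. Its difference was 3.07 (SE 0.90, adjusted p 0.215 by limma), and the tumours of mouse 8700 lay inside the treated range. Gadd45a, a stress gene that slows entry into mitosis, lay between 9.13 and 9.86 in treated and between 8.22 and 9.45 in untreated tumours (difference 0.85, SE 0.20, adjusted p 0.082 by limma). Ccng1, the cyclin G1 gene and an early p53 target, lay between 11.93 and 12.72 in treated and between 11.25 and 12.08 in untreated tumours, with a difference of 0.65. Its 2 dimmer probe sets gave 1.63 and 1.53 where the brightest, which stands for the gene, gave 0.65. Zmat3, an RNA-binding p53 target, differed by 0.76 and Trp53inp1, a p53 cofactor gene, by 0.57, each with an unadjusted p under 0.05 and neither called. Sfn, Ddit4 and Ccng2 had differences just under 0, between -0.14 and -0.09.

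Among death-related targets was Aen, an apoptosis-enhancing nuclease gene. It was the 1 p53 target of 41 tested whose groups did not overlap, against 0.356% of all tested genes. Its treated values lay between 9.27 and 10.24 and its untreated values between 8.60 and 9.22. Its difference of 0.76 (SE 0.20) had an adjusted p of 0.134 by limma. Fas, the death receptor gene, differed by 0.78 and Phlda3, an inhibitor of Akt signalling, by 1.22. The BH3-only gene Pmaip1 gave -0.28, and Bbc3, which encodes Puma, was under the filter with an untested difference of 0.22.

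The repair and metabolism targets held the widest differences after Psrc1. Of the 10 tested, 2 passed the filter only through treated tumours, Dyrk3 and Ddit4l. Each exceeded the array median in 6 of 10 treated and 0 of 8 untreated tumours. Dyrk3, a kinase gene, lay between 5.40 and 7.04 in treated and between 3.96 and 5.64 in untreated tumours (difference 1.44, SE 0.33, adjusted p 0.069 by limma). Ddit4l, an mTOR inhibitor gene, differed by 2.204 and Ephx1, the microsomal epoxide hydrolase gene, by 1.45; the tumours of mouse 8700 averaged 10.04 for Ephx1, above the mean of 9.89 in mouse 8688. Ercc5, a nucleotide excision repair nuclease gene, differed by 0.45.

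Feedback genes had small differences. Mdm2, which marks p53 for destruction and is itself a p53 target, lay between 10.06 and 10.79 in treated and between 9.73 and 10.49 in untreated tumours, with a difference of 0.20 (95% interval -0.19 to 0.58) and an adjusted p of 0.959 by limma. Its relative Mdm4 gave -0.18, turning to 0.09 without 8688T3 and 8639T4 and to 0.14 with array weights. Cdkn2a, whose product restrains Mdm2, was below the array median too often to be tested and gave 0.21. Trp73 and Trp63 were likewise under the filter.

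**Figure D1:**
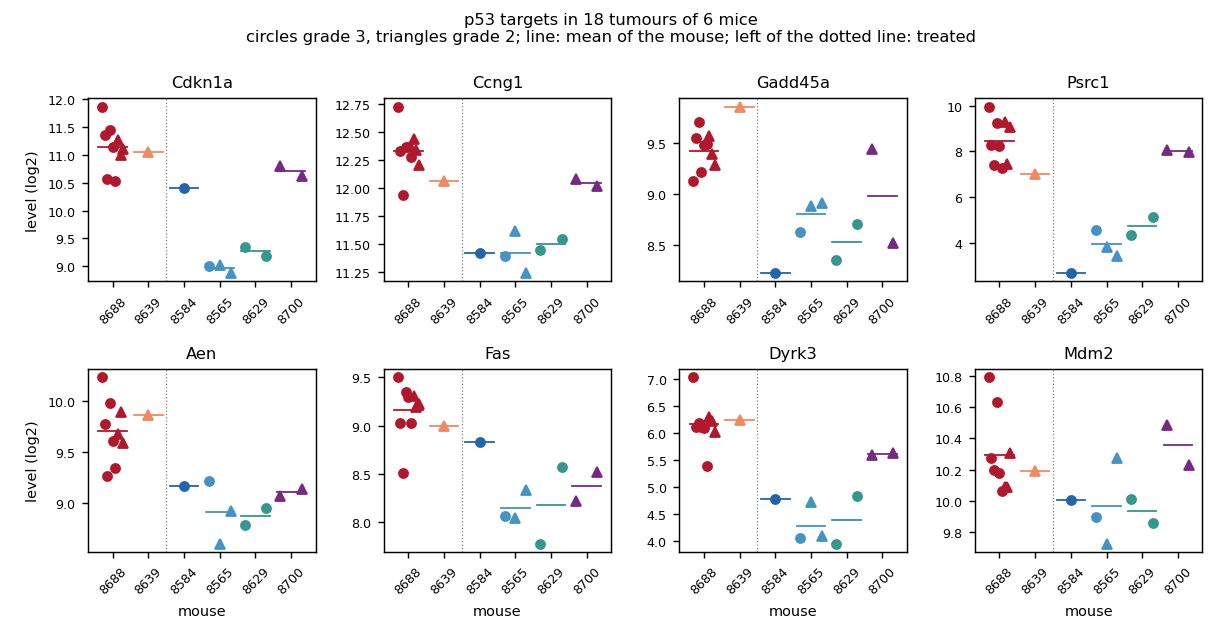
Level (log2 intensity) of 8 p53 targets in each of 18 tumours, by mouse on the x axis, with treated mice left of the dotted line; circles are grade 3, triangles grade 2, and the line is the mean of the mouse. Untreated mouse 8700 lies at or near the treated level for Cdkn1a, Ccng1, Psrc1 and Dyrk3, and Aen shows no overlap between the groups.

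Genes of mitosis and cytokinesis were lower in treated tumours with few exceptions. Of 51 listed genes, 48 were on the array and 28 tested. Of these, 3 were called lower (Anln, Cdc20 and Ncapg), against 0.151% of all tested genes. At an unadjusted p under 0.05 by limma 26 were lower, against 3.11% of all tested genes. In all, 27 of the 28 lay below 0, against 2975 of all 7300. Their median difference was -1.18, against 0.03 over all tested genes. A filter on level can favour genes that are high in 1 group. Of the 28, 4 passed it only through untreated tumours, Ccnb2 and Cdca3 among them. Without the filter, 47 of the 48 lay below 0, with a median of -0.98, against 5366 of all 12393 genes.

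Cdc20 encodes the activator that turns the anaphase-promoting complex on, and its promoter holds both motifs shown above. Its level was 6.39, 5.98, 6.84, 6.77, 6.14 and 6.26 in the treated adenocarcinomas, 6.31, 6.28 and 6.17 in the treated adenomas of mouse 8688 and 6.06 in 8639T4. The untreated values were 7.13 in 8584T3, 7.96, 8.22 and 7.75 in mouse 8565, 8.05 and 8.74 in mouse 8629, and 7.12 and 7.28 in mouse 8700. No treated tumour reached the lowest untreated one. Among the untreated mice, 8584 and 8700 had the highest Cdkn1a and the lowest Cdc20, and a link between these genes was not tested. Cdc20 fell by 1.46 on the log2 scale (SE 0.27, adjusted p 0.020 by limma, lower in 10 of 10 treated tumours), and its other probe sets gave -1.16 and -0.86.

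Anln encodes anillin, which organises the cleavage furrow. It lay between 5.80 and 6.32 in treated tumours, and in untreated tumours between 6.48 in 8700T3 and 8.10 in 8629T12; it fell by 1.26 (SE 0.22, adjusted p 0.015 by limma), without overlap. Ncapg, a condensin subunit gene that helps compact chromosomes, lay between 5.51 and 6.98 in treated and between 6.77 and 7.92 in untreated tumours. It fell by 1.21 (SE 0.23, adjusted p 0.028 by limma), and 8688T5, at 6.98, overlapped mouse 8700, at 6.77 and 6.88.

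Among members that missed the threshold, Nusap1, a spindle microtubule gene, had the largest difference at -1.73 (SE 0.37, adjusted p 0.061 by limma). Cdk1, the mitotic kinase gene, gave -1.42, Birc5, which encodes survivin, -1.30, the cyclin genes Ccnb2 and Ccna2 -1.19 and -1.18, and the proliferation marker Mki67 -1.19. Cdca3, Tacc3 and Kif20a gave -1.37, -0.94 and -1.01, the last of these untested. Pttg1, the securin gene, was the exception above 0 at 0.11, but its sign changed with the setting, to -0.14 without 8639T4. Tumour 8639T4, whose RNA had the second highest 3' excess, was the lowest of all 18 for Mki67 at 6.798, Cdk1 at 4.78 and Ccnb2 at 4.49; the part of RNA quality in this was not tested. Without 8639T4 no mitosis gene was called and the list's median was -0.96, and the same held without 8688T3 and 8639T4 together. Without 8688T3, the tumour with the highest 3' excess, 2 were called and the median was -1.21. Leaving out untreated 8565T4 also left 0 called, but there the median, -1.19, stayed near the -1.18 of all tumours.

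**Figure D2:**
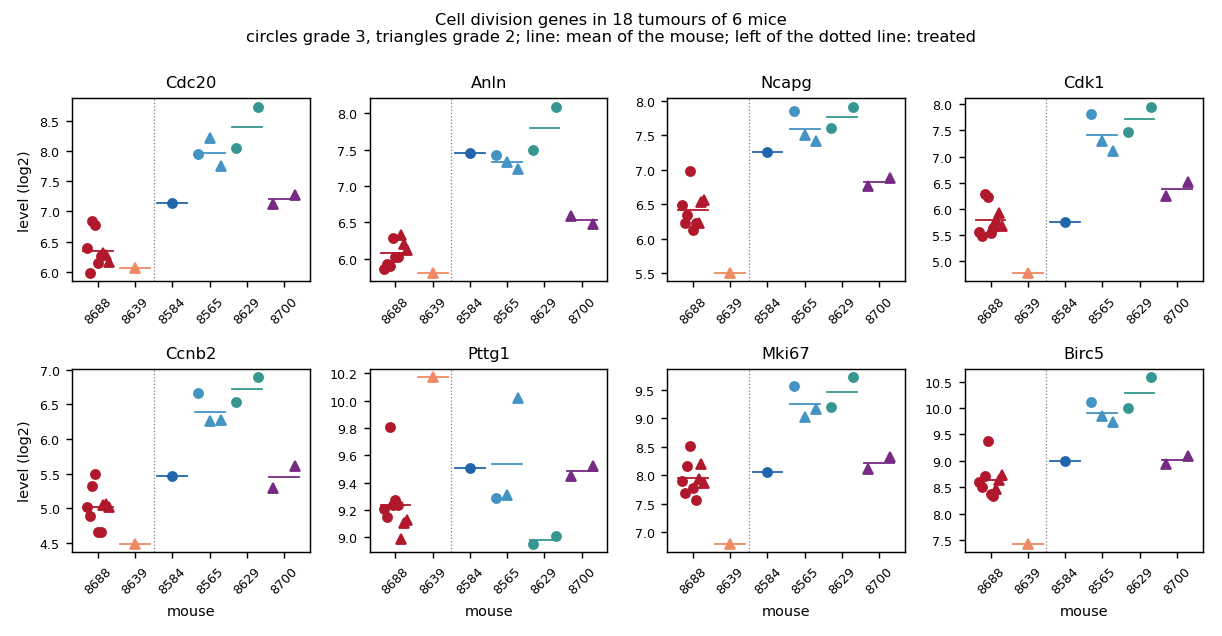
Level (log2 intensity) of 8 cell division genes in each tumour, by mouse, with treated mice left of the dotted line; circles are grade 3, triangles grade 2, and the line is the mean of the mouse. Cdc20 and Anln show no overlap between the groups, mice 8584 and 8700 are the lower untreated mice for most of the genes, and Pttg1 does not share the pattern.

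Genes of DNA replication and S phase had smaller differences. Of 23 tested, 20 lay below 0, against 2975 of all 7300 genes, and none was called. At an unadjusted p under 0.05 by limma 3 were lower, against 3.11% of all tested genes, and the median was -0.17. Tk1, the thymidine kinase gene, was the largest at -1.21 (SE 0.26, adjusted p 0.062 by limma), with treated values between 5.03 and 6.05 and untreated values between 6.17 and 7.57. It exceeded the array median in 0 of 10 treated and 8 of 8 untreated tumours, so it passed the filter only through untreated ones. Rrm2, a ribonucleotide reductase subunit gene, gave -0.69 and Uhrf1, a maintenance methylation factor gene, -0.76. The replicative helicase genes Mcm6 and Mcm7 and the clamp gene Pcna lay between -0.06 and 0.00.

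Of senescence and secreted factor genes, 13 of 17 tested lay below 0, against 2975 of all 7300 genes, and none was called. Cdkn2b, a kinase inhibitor of the p16 family, gave 0.60 with an unadjusted p under 0.05, and Il1b, an inflammatory cytokine gene, gave -1.32. Genes of MAPK output and feedback had a median of -0.02 over 12 tested.

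The called genes outside cell division fell into those that both treated mice shared and those of mouse 8688 alone. Cth encodes cystathionine gamma-lyase, which makes cysteine from cystathionine. It lay between 9.18 and 9.62 in the 9 tumours of mouse 8688 and at 8.94 in 8639T4. Its untreated values were 6.43 in 8584T3, 7.71, 7.05 and 6.86 in mouse 8565, 8.35 and 6.84 in mouse 8629, and 7.88 and 7.52 in mouse 8700. Treated tumours were close to each other, untreated ones spread more widely, and the groups did not overlap. Cth rose by 1.90 (SE 0.30, adjusted p 0.011 by limma, higher in 10 of 10). Of 19 tested genes of the list on NRF2, cysteine and glutathione, only Cth was called, against 0.0822% of all tested genes called higher.

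Gal, which encodes the neuropeptide galanin, lay between 5.83 and 7.02 in mouse 8688 and at 8.17 in 8639T4, the highest of all tumours. Untreated values lay between 3.46 and 4.64 except in 8584T3, at 5.72. It rose by 2.46 (SE 0.44, adjusted p 0.015 by limma). Shmt2, the mitochondrial serine hydroxymethyltransferase gene, lay between 6.69 and 7.29 in treated and between 5.64 and 6.51 in untreated tumours and rose by 0.82 (SE 0.17, adjusted p 0.044 by limma). Itgb3bp, a centromere protein gene, rose by 0.96 (SE 0.17), with 8639T4 highest at 8.15.

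Hbb-b2, a beta globin gene, had the smallest p of the comparison. It lay between 6.09 and 7.75 in the 10 treated tumours and between 9.35 and 10.66 in the 8 untreated ones, a gap of 1.60. It fell by 3.03 (SE 0.32, adjusted p 9.2e-05 by limma). Beta globin genes are near-identical copies, so which copy gave the signal is uncertain. Alas2, the first enzyme gene of haem synthesis in red cells, lay between 2.62 and 3.18 in treated and between 3.73 and 5.03 in untreated tumours, below the array median everywhere and so not tested. The alpha globin gene Hba-a2 did not share this: it lay between 9.79 and 10.61 in treated and between 10.19 and 10.80 in untreated tumours, a difference of -0.27. Of the 12 red cell and platelet markers on the array, 9 lay below the array median in every tumour. The 3 tested, Hbb-b2, Hba-a2 and the platelet gene Pf4, all lay below 0, with a median of -0.70, and their mean level was between 8.48 and 9.32 in treated and between 9.80 and 10.40 in untreated tumours. Without the filter 9 of the 12 lay below 0, against 5366 of all 12393 genes, with a median of -0.09.

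Fam160b1 lay between 5.60 and 6.70 in treated and between 7.40 and 8.79 in untreated tumours and fell by 1.91 (SE 0.29, adjusted p 0.0086 by limma). Tbxas1, the thromboxane synthase gene, fell by 0.84 (SE 0.14) and Il1r1, the interleukin 1 receptor gene, by 0.85 (SE 0.17), both without overlap. Cdh16, a kidney-type cadherin gene, fell by 2.19; its highest treated value, 4.31, lay above 1 untreated value, 4.18.

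Gbp2b, an interferon-inducible GTPase gene, was low in all treated tumours, between 2.40 and 2.86, and also in untreated 8584T3, at 2.61. In the other 7 untreated tumours it lay between 6.42 and 8.30; its difference was -4.13 (SE 0.71), and 1 untreated mouse shared the treated level. Ang3, an angiogenin family gene, lay between 6.50 and 7.53 in mouse 8688, but at 2.14 in 8639T4, inside the untreated range of 1.90 to 2.53. Ctr9, a subunit gene of the PAF complex, lay between 9.50 and 10.11 in mouse 8688, at 7.50 in 8639T4 and between 6.69 and 7.63 in untreated tumours; its other 3 probe sets gave between -0.30 and 0.07. Tmem242 was at 5.54 in 8639T4, inside the untreated range of 5.41 to 6.62, and Eif2s3y followed sex. In these 4 genes only mouse 8688 lay beyond the untreated tumours.

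**Figure D3:**
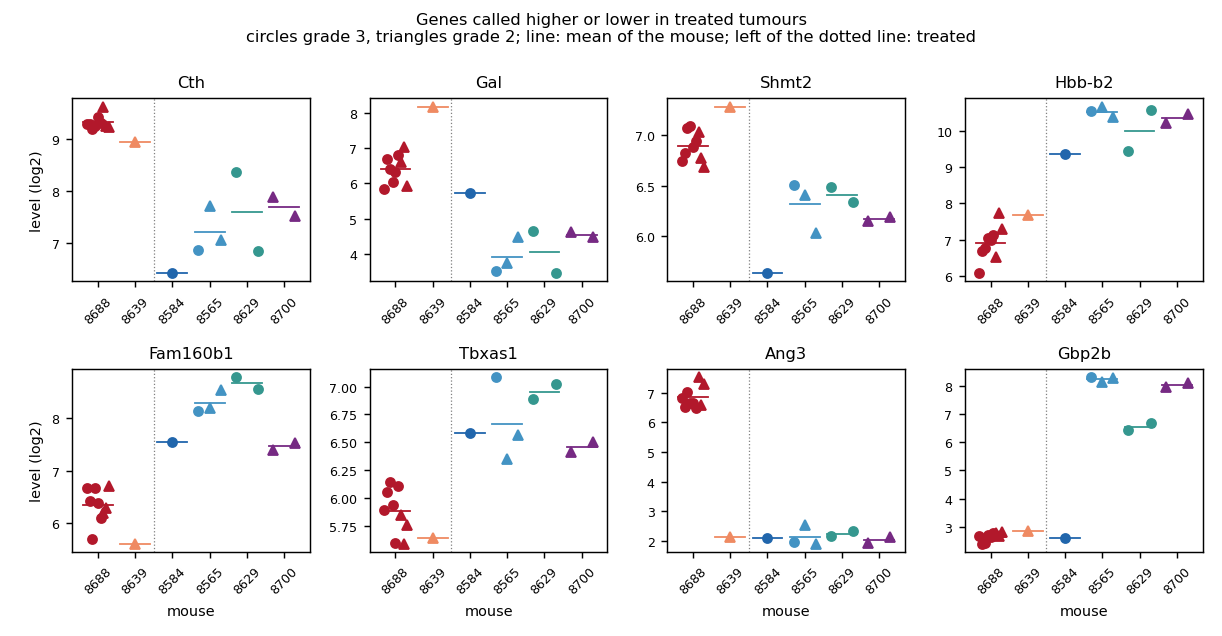
Level (log2 intensity) of 8 called genes in each tumour, by mouse, with treated mice left of the dotted line; circles are grade 3, triangles grade 2, and the line is the mean of the mouse. Cth, Gal, Shmt2, Hbb-b2, Fam160b1 and Tbxas1 show both treated mice on one side of all untreated tumours, Ang3 is high in mouse 8688 alone, and Gbp2b is also low in untreated mouse 8584.

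Tumour 8639T4 is the only view of a second treated mouse. With mouse 8688 as the only treated mouse 12 genes were called, among them the sex-linked Eif2s3y, Kdm5d and Xist. Tumour 8639T4 lay on the same side of the untreated adenomas for 10 of the 12 and beyond all untreated tumours for 4. The 10 include Eif2s3y, at 11.04 against a mean of 11.29 in untreated adenomas, and Ang3, at 2.14 against 2.12. Over all 7300 genes tested 8639T4 lay on the same side for 62.3% and beyond for 20.4%. Over the 48 mitosis genes on the array, with no filter, 8639T4 lay below all 8 untreated tumours for 44, against 10.2% of all 12393 genes. Over the 52 p53 targets and regulators on the array it lay above all untreated tumours for 11, or 21.2%, near the 17.7% of all genes. It lay below all untreated tumours for 3 of the 52, or 5.77%, against 10.2% of all genes. It lay on the same side of the untreated adenomas as mouse 8688 for 39 of these 52, or 75%, against 64.6% of all genes. The mean level of the tested p53 targets and regulators was 9.05 in 8639T4, just above the highest untreated tumour, 8700T1 at 9.03. The 11 members above every untreated tumour in it, a share near that of all genes, included Cdkn1a, Aen, Gadd45a and Dyrk3. These were at 11.06, 9.87, 9.86 and 6.25.

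With the mouse as the unit, 2 treated against 4 untreated, 15 splits are possible and the two-sided exact permutation test cannot give less than 0.0667. The difference of mouse means was 1.26 for Cdkn1a (exact p 0.133), 0.60 for Ccng1 (exact p 0.0667), 0.17 for Mdm2 (exact p 0.4), -1.37 for Mki67 (exact p 0.133) and -1.47 for Cdc20 (exact p 0.133). Adjusted over the 5 genes, the exact p-values were 0.167, and 0.4 for Mdm2.

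Both grades contributed to these differences. In a fit of the 4 group means over all 18 tumours, the grade 3 contrast called 34 genes (0.466%) and the grade 2 contrast 5 (0.0685%). Fits on the tumours of a single grade called 12 in grade 3 and 20 in grade 2, so the order of the grades depended on the fit. The difference between the grades was called for none of 7300 genes, with 665 (9.11%) at an unadjusted p under 0.05 by limma. Cdc20 gave -1.51 in grade 3 and -1.42 in grade 2, Cth 2.13 and 1.66, Hbb-b2 -3.09 and -3.00, and Cdkn1a 1.53 and 1.24. Anln gave -1.62 and -0.87. The medians of the mitosis list were -1.27 and -0.94, and those of the p53 lists together 0.34 and 0.20. Ephx1 gave 2.36 and 0.49 and Mdm2 0.39 and -0.01; for neither was the difference between grades called.

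**Figure D4:**
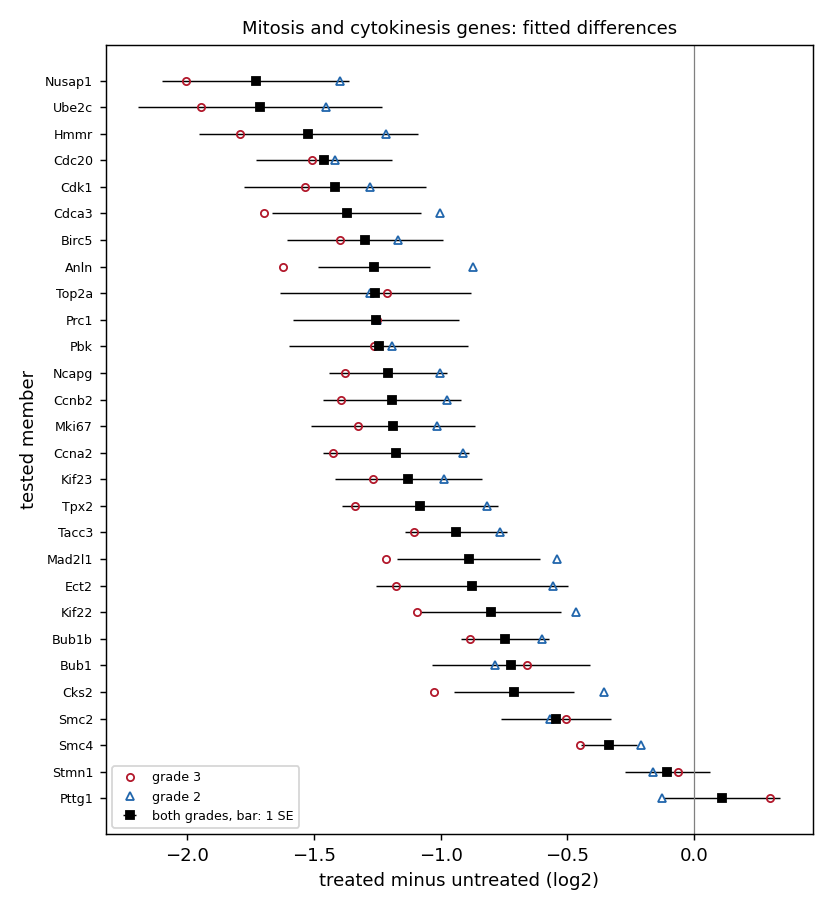
Treated minus untreated (log2) for the 28 tested mitosis and cytokinesis genes, as squares for both grades with bars of 1 SE, red circles for grade 3 and blue triangles for grade 2. All but Pttg1 lie below 0 in the pooled fit, from -1.73 for Nusap1 to -0.11 for Stmn1.

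The 5 smallest interaction p-values belonged to Afp, Muc5b, Rtkn2, Fbln1 and Lgals4. Afp, the alpha-fetoprotein gene, gave -0.61 in grade 3 and 2.08 in grade 2, and Muc5b, an airway mucin gene, -3.06 and -0.15; both had an adjusted interaction p of 0.127 by limma. Rtkn2, an alveolar type 1 marker, gave 1.95 and 0.58, Fbln1, a matrix gene, 1.51 and -0.55, and Lgals4, a gut galectin gene, -1.91 and -0.37, each with 0.315. The gut and gastric genes of advanced tumours as a list had a median of -1.84 in grade 3 and -0.30 in grade 2 over 9 tested members. Of these, 8 lay below 0 in the pooled fit, against 2975 of all 7300 genes, and none was called.

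No tested marker of the other cell types was called except Hbb-b2. Over both grades the median was 0.02 for alveolar type 2 markers and 0.18 for type 1 markers (15 of 16 tested above 0, against 59.2% of all tested genes). It was 0.03 for macrophage markers, 0.10 for endothelial, -0.14 for T and NK cell, -0.41 for B and plasma cell and -0.21 for fibroblast and matrix genes. In grade 3 and grade 2 the medians were 0.25 and -0.25 for type 2 markers and 0.30 and 0.02 for type 1 markers. They were 0.28 and -0.16 for endothelial and 0.009 and -0.53 for fibroblast and matrix genes. Of 21 tested type 2 markers, 20 lay above 0 in grade 3 and 18 below 0 in grade 2. The mean level of fibroblast and matrix genes lay between 9.36 and 9.77 in treated and between 9.23 and 10.36 in untreated tumours, with 8584T3 lowest. Of 26 tested members, 19 lay below 0, against 2975 of all 7300 genes, and none was called. Their part in the differences above was not tested.

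Interferon-stimulated genes had a median of 0.33, with 23 of 26 tested above 0, against 59.2% of all tested genes. At an unadjusted p under 0.05 by limma 7 were higher, against 3.96% of all tested genes, and none was called. Ifit3, an antiviral effector gene, lay between 9.20 and 9.61 in treated tumours and between 6.43 and 9.55 in untreated ones, with mouse 8700 at a mean of 9.49. Rsad2, which encodes viperin, gave 1.21. Their mean level ranged within the untreated group from 7.00 in 8584T3 to 8.19 in 8565T1, and 8639T4, at 7.65, lay inside that range. Of 20 tested immediate early genes, 12 lay below 0 and 8 above, against 2975 and 4325 of all 7300 genes. They ranged from -1.57 to 0.51, with a median of -0.08 and none called. At an unadjusted p under 0.05 by limma 3 were lower, against 3.11% of all tested genes, among them Nr4a1 at -1.57 and Egr2 at -0.69.

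**Figure D5:**
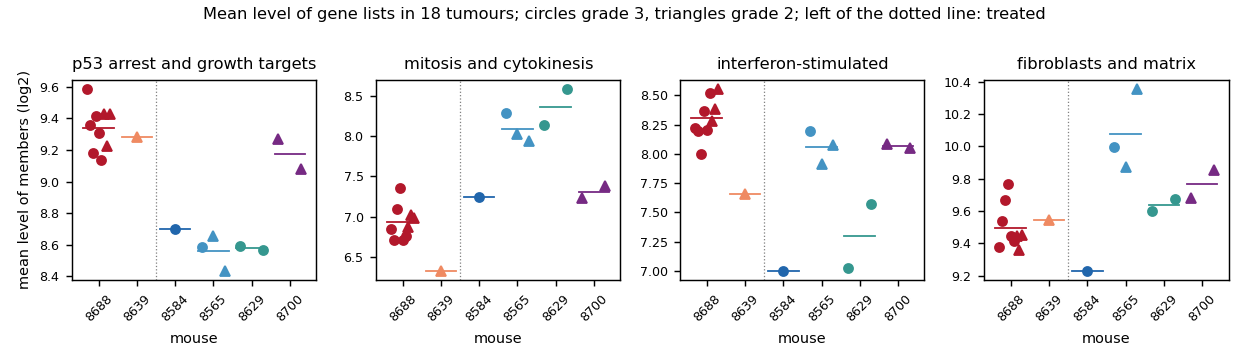
Mean level (log2 intensity) of 4 gene lists in each tumour, by mouse, with treated mice left of the dotted line; circles are grade 3, triangles grade 2, and the line is the mean of the mouse. Tumours of untreated mouse 8700 lie near the treated level of p53 arrest targets, and 8584 and 8700 have the lowest untreated levels of mitosis genes.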

How the data were processed

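RNA of 18 mouse lung tumours was measured on 3' expression arrays. Per the submitters' processing notes, the authors made the deposited log2 intensities with GCRMA 2.20.0 in R 2.11.0; no source used here gives further steps. GCRMA corrects background from probe sequence and can widen differences near the floor. Of 22690 probe sets, 20380 named 1 gene, 691 several and 1555 none, and 64 were controls; the probe set with the highest mean stood for each of 12393 genes. Genes that exceeded the median of 4 or more arrays were fitted with limma 3.58.1 in R 4.3.3, with grade as a covariate and the mouse as a random block (duplicateCorrelation, correlation 0.30), the p-values adjusted by Benjamini-Hochberg and a threshold of 0.05. The fit had 15 residual and 3.74 prior degrees of freedom. It was tested on simulated data and repeated with other filters, normalizations, blocks and subsets of tumours and mice. The number of arrays and mice limits the precision. Members, gene lists and tests were chosen with earlier results of these data known. The text names Cdkn1a, Mdm2, Ccng1, Cdkn2a, Mki67, Xist and Eif2s3y, all 17 called genes, the 5 smallest interaction p-values, and uncalled list members with their values. Promoters come from the RefSeq table for GRCm38.p6.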

Additional observations from a re-analysis of the deposited data

Results flagged for a closer look

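Within each of the 4 groups of treatment and grade, the highest or lowest tumour was compared with the rest by Dixon's ratio; 25 of 268 combinations of gene and group passed, where chance gives about 1 in 20. In 8639T4, the only grade 2 treated tumour not of mouse 8688, 10 genes stood apart: Ccna2 at 6.73, Ccnb2 at 4.49, Cdca3 at 4.63, Kif20a at 4.29 and Tk1 at 5.03 were low, Pttg1 at 10.2 was high, Hba-a2 was at 9.99, and the sex-linked genes Eif2s3y, Kdm5d and Xist were at 11.04, 7.92 and 4.33. In 8584T3, the only tumour of its mouse, 5 genes stood apart: Asns at 10.3, Il1r1 at 9.83, Itgb3bp at 7.17, Mdm4 at 9.71 and Trp53inp1 at 11.98. In 8688T3, which had the highest 3' excess, these were Hba-a2 at 9.79, Mdm4 at 8.13, Pttg1 at 9.81 and Slc7a5 at 10.1. The others were Cdh16 at 5.37 and Gal at 3.74 in 8565T3, Anln at 8.10 in 8629T12, Birc5 at 9.37 in 8688T5, Ctr9 at 9.66 in 8688T11 and Plk2 at 7.51 in 8688T9.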

How the results depend on the processing

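With the mouse ignored 368 genes were called, and with array weights 476; with mouse means within each grade 1 was called, and with mouse means over both grades 0 (291 at an unadjusted p under 0.05 by limma). Sex as a covariate left 1 (Deptor, none of the 17). Leaving out 1 tumour gave between 2 (8565T4) and 147 (8584T3, then with 20 mitosis genes and 9 p53 targets); leaving out mouse 8565, 8584, 8629 or 8700 gave 1, 147, 9 and 35, and leaving out 8688T3 and 8639T4 gave 9. With mouse 8688 as the only treated mouse 12 were called; fits on the grade 3 tumours only called 12 and on the grade 2 tumours only 20. No filter gave 45 (Alas2 among them), a floor of 5 gave 27 and a filter on the mean 11. Quantile normalization kept all 17 and median centring 16. The count for the treatment by grade interaction, 0, became 124 with array weights, 1 with sex as a covariate, 1 with mouse 8688 alone, and between 0 and 14 with 1 tumour left out. Only Hbb-b2 and Fam160b1 kept their call with each tumour left out in turn. The sign turned with sex as a covariate for Ang3 (-0.13), Xist (-1.15) and Kdm5d (0.28); in grade 3 alone for Afp (-0.38); in grade 2 alone for Fbln1 (-0.70), Mdm2 (-0.0089) and Plk2 (-0.11); and for Mdm4 without 8688T3 and 8639T4 (0.094) and with array weights (0.14). Pttg1 turned to -0.034 with the mouse ignored, -0.14 without 8639T4 (from -0.14 to 0.25 with 1 tumour left out), -0.17 in grade 2, -0.00218 without mouse 8629, -0.21 without 8688T3 and 8639T4, -0.032 without shared probe sets and -0.10 with array weights. The cause of these changes was not tested. No paired analysis was possible because no mouse carried both treated and untreated tumours, tumour numbers name tumours of a mouse and pair none, and a fixed mouse block leaves the treatment inestimable.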

Other observations

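Cth and Shmt2 belong to a set of genes of the amino acid response and of serine and cysteine synthesis that was drawn up after the values had been seen, so it carries no test. Of its 30 genes, 27 were on the array and 22 tested. All 22 lay above 0, against 59.2% of all tested genes. At an unadjusted p under 0.05 by limma 12 were higher, against 3.96%, and 2 were called higher, against 0.0822%. The median difference was 0.53, against 0.03 over all tested genes. Without the filter 26 of the 27 lay above 0, against 7027 of all 12393 genes, Fgf21 being the exception at -0.07. The mean level of the set lay between 9.19 and 9.57 in treated and between 8.51 and 9.07 in untreated tumours, without overlap.

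Asns, the asparagine synthetase gene, lay between 11.19 and 11.70 in treated tumours and between 10.28 and 11.19 in untreated ones (difference 0.74, adjusted p 0.092 by limma). Trib3, a stress pseudokinase gene, gave 1.15, Chac1, a glutathione-degrading enzyme gene, 1.19, Eif4ebp1, a translation repressor gene, 0.83, Slc7a5, an amino acid transporter gene, 0.85, and Mthfd2, of mitochondrial folate metabolism, 0.94, none of them called. Cbs, which makes the cystathionine that Cth cleaves, was under the filter and lay between 4.41 and 5.12 in treated and between 3.26 and 3.93 in untreated tumours. Tumour 8639T4 was the highest of all tumours for Trib3 at 8.64, Chac1 at 7.52 and Mthfd2 at 9.84, and 8688T3 was the second highest at 8.14, 7.03 and 9.83. These tumours had the highest 3' excess of control transcripts, 1.85 and 2.62, and also the highest mean level of the set, 9.57 and 9.48; the part of RNA quality was not tested. In the other 8 treated tumours the mean level of the set lay between 9.19 and 9.47, above the untreated range. Because the set was chosen after the values were seen, this separation is no test, of RNA quality or of treatment. Hyi and Ttc5, named after their values were seen, were called with mouse 8688 as the only treated mouse and gave 1.12 and 0.81 in the comparison of all tumours.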
